A study of Mus musculus with 18 samples.

Results

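The comparison set 3 arrays of C2C12 cells that carried KK-TAF3 and had been depleted of PIP4K2B against 3 arrays of cells that carried WT-TAF3 and had not, both after etoposide, so that 6 of the 18 arrays of the study entered it. The arrays were chosen by their titles and not by any measured value. C2C12 is a mouse myoblast line. All cells had first been depleted of their own TAF3 by an shRNA and then rescued with a retrovirus that expresses murine TAF3, either wild type (WT-TAF3) or KK-TAF3, a mutant in the PHD finger that keeps binding to methylated histone H3 but has lost binding to phosphoinositides. The first group, KK-TAF3 sh-PIP4K2B, also carried an shRNA against PIP4K2B, whereas the labels of the WT-TAF3 control group name no shRNA. That these cells carried the control sequence shX is taken from the study's description of its cell lines. Both groups received 10 µM etoposide for 7 hours and were not switched to differentiation medium. The study made its depleted and rescued cells by viral transduction with drug selection and named its replicates biological triplicates. The difference between the groups is called the net difference here because it sums 2 steps, PIP4K2B depletion in WT-TAF3 cells and the exchange of WT-TAF3 for KK-TAF3 in depleted cells. KK-TAF3 cells without PIP4K2B depletion were not analysed here, so the mutant alone and the mutant with depletion cannot be told apart.

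PIP4K2B is a lipid kinase that phosphorylates phosphatidylinositol-5-phosphate, a nuclear phosphoinositide, and its loss lets that lipid build up. TAF3 is a subunit of TFIID, the complex that loads RNA polymerase II onto promoters, and its PHD finger reads trimethylated lysine of histone H3 at active promoters. Etoposide traps topoisomerase II on DNA and leaves double-strand breaks, after which checkpoint kinases and p53 hold cells before mitosis, with repression of many genes of the G2 and M phases.

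The deposited values were log2 signals for 35556 transcript clusters, and 19938 genes with a single symbol were tested. The median signal of an etoposide array over these genes lay between 7.94 and 8.02. Arrays of a group correlated at 0.994 or more, and the median SD over genes was 0.095 in WT-TAF3 control cells and 0.112 in KK-TAF3 sh-PIP4K2B cells, against 0.069 to 0.073 in the 3 differentiated groups. Of 10 myoblast markers 7 lay above the median gene in control cells. Vim, Des, Itga7 and Chrna1 lay between 11.69 and 14.35 on the 6 arrays. Myod1 (control mean 7.77), Msc (7.78) and Cdon, a cell surface receptor that promotes myogenesis, lay below the median gene. Cdon ranged from 5.68 to 5.98. None of 10 myoblast markers and none of 6 markers of differentiated muscle was called by the rule given below, which requires 1.4-fold. Vcam1 (-0.33) was called only without that fold limit. All myoblast markers but Myod1 (0.17) had negative net differences. The 5 macrophage and 4 endothelial markers all lay below the median gene in control cells, and of 6 fibroblast markers only Lum was called, as described below. Above the median gene lay 2 of 6 fibroblast, 2 of 6 bone and cartilage, 1 of 5 adipocyte and 1 of 4 epithelial markers. The brightest of these were Dcn (control mean 12.12) and Sox9 (11.08).

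The targeted gene was checked first. Pip4k2b gave log2 signals of 10.75, 10.71 and 10.48 in WT-TAF3 control cells and of 10.02, 10.10 and 9.69 in KK-TAF3 sh-PIP4K2B cells. Each depleted array lay below each control array. The net difference was -0.71 (SE 0.10, 95% interval -0.92 to -0.50, limma adjusted p = 0.000253). The related kinases Pip4k2a and Pip4k2c differed by 0.02 and -0.00, with intervals of -0.13 to 0.17 and -0.15 to 0.15. Taf3 itself differed by -0.07 (interval -0.20 to 0.07), and its gene-level signal does not separate WT-TAF3 from KK-TAF3. Of 62 genes for phosphoinositide kinases, phosphatases and phospholipases only Pip4k2b, the target of the shRNA, was called by the rule given below. Over all genes 1.15% were called, so this count does not show how specific the depletion was.

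A gene was called at a Benjamini-Hochberg adjusted p under 0.05 in limma with a change above 1.4-fold, and 230 of 19938 genes were called, which is 1.15%. Of these, 158 (0.792%) were higher and 72 (0.361%) lower in KK-TAF3 sh-PIP4K2B cells, while the median over all genes was 0.016. With the median signal of each array as a covariate the split was 208 higher and 51 lower. At the fold limit itself stood Brip1 (0.49) and Ccdc80 (-0.49) just inside and Cdca3 (0.48) and Pcdhb19 (-0.48) just outside. The study called the arrays biological triplicates, whereas the labels do not say that they came from separate cultures. The p-values rest on a spread between arrays pooled over all groups of the study, differentiated cells included. The median SD was 0.069 to 0.073 in the differentiated groups. It was 0.095 and 0.112 in the groups compared and 0.137 in WT-TAF3 sh-PIP4K2B cells after etoposide. Fitted alone, the 9 etoposide arrays gave 173 called genes and the 6 arrays compared gave 181, of which 179 were among the 230. The 6 arrays of all 230 called genes were fully separated by group, as were those of 14.2% of all genes (8.22% above and 6.01% below the controls). Where separation is given below for a single called gene, it describes the values and adds no support to the call. Without replicate 3 of the WT-TAF3 control cells 172 genes were higher and 115 lower.

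**Figure D1:**
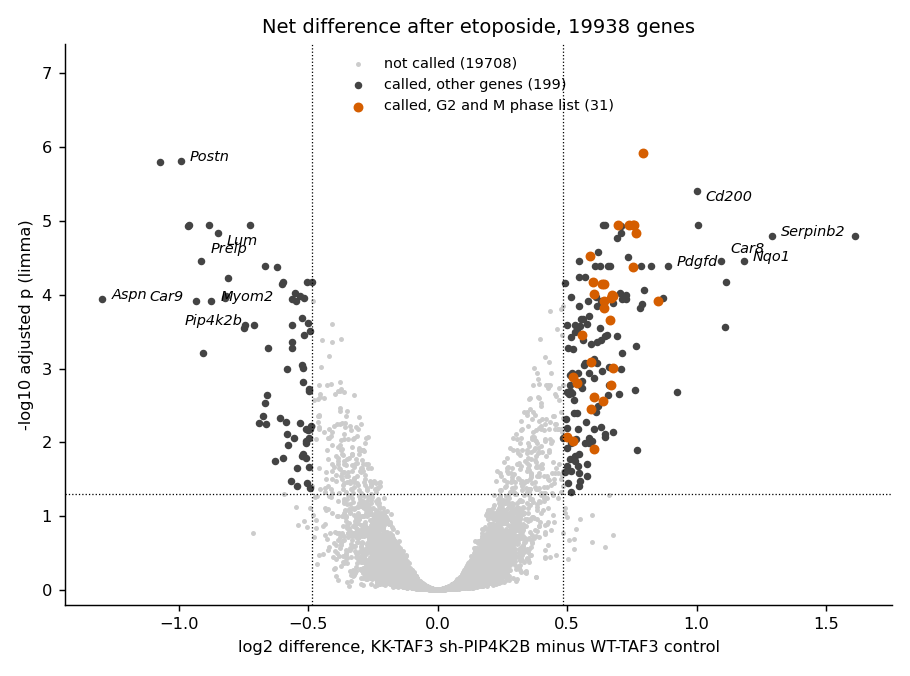
Net difference of each of 19938 genes after etoposide (x axis, log2 difference of group means, 3 arrays each) against its -log10 adjusted p from limma (y axis). Dotted lines mark 1.4-fold and an adjusted p of 0.05; 31 of the 158 higher genes belong to the G2 and M phase list (orange), none of the 72 lower genes does, and the unlabelled point farthest to the right is 2610524H06Rik at 1.61.

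Genes of the G2 and M phases held the most calls of the 37 lists examined. Of 42 measured members of that list 31 were higher, none was lower and 11 were not called. Of all genes 0.792% were higher and 0.361% lower. The list's median net difference was 0.60, and the called members ranged from 0.50 to 0.85, or 1.42- to 1.80-fold. The mean log2 signal of the 42 genes was 9.35, 9.30 and 9.28 on the control arrays and 9.82, 9.89 and 9.94 on the KK-TAF3 sh-PIP4K2B arrays. All 3 mutant arrays thus stood above all 3 control arrays, and the same separation held for 38 of the 42 genes taken singly, where 8.22% of all genes showed it upwards. In a bulk sample a larger share of cells in G2 or mitosis and more RNA per cell cannot be told apart.

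Promoters of these genes are shown because many of them share short elements known for periodic expression, the CHR element (TTTGAA), which binds the DREAM and MuvB complexes, and the CCAAT box (CCAAT), which binds NF-Y. The RefSeq windows searched, on mouse build GRCm38.p6, run from 250 bases before to 50 bases after a start, and both strands were read. Matches of the different elements given in this paragraph can share at most 1 base, at their ends. TTTGAA occurred in 17.9% of 32851 windows of all genes, in 43.1% of 137 windows of the genes called higher, in 12.7% of 63 windows of the genes called lower and in 76.3% of 38 windows of the G2 and M phase list. CCAAT occurred in 37.4%, 59.1%, 36.5% and 76.3% of the same windows, and the core TATA box (TATAAA) in 13.6%, 10.2%, 12.7% and 2.63%. The list had windows for 35 of its 42 genes, the higher genes for 124 of 158 and the lower genes for 45 of 72. The sets overlap, because the 137 windows of the higher genes include 27 of called list members, 22 of them with TTTGAA. The 150 bases before the start are printed for 4 called genes of the list with large differences, and for Nqo1 and Postn as a rise and a fall outside the list. Capitals mark TTTGAA and CCAAT on either strand in the first 4 sequences and TATAAA in the last 2.
Kif2c (chr4:117178773-117178922, minus strand): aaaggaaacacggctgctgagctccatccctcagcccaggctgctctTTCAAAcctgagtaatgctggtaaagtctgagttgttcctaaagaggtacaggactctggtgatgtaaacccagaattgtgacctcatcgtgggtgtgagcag
Aurka (chr2:172370571-172370720, minus strand): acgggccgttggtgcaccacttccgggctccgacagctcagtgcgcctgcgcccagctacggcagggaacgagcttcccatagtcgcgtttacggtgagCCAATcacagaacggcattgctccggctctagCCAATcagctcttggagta
Bub1b (chr2:118598061-118598210, plus strand): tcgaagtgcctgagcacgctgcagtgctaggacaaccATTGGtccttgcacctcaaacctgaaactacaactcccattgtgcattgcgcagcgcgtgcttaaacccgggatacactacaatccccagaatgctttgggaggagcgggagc
Kif11 (chr19:37376232-37376381, plus strand): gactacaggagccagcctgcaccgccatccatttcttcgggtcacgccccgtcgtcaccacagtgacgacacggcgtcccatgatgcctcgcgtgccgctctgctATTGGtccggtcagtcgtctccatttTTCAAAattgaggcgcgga
Nqo1 (chr8:107403206-107403355, minus strand): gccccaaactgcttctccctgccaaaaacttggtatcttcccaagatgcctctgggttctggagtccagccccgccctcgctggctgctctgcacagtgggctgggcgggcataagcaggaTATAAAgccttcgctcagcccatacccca
Postn (chr3:54360957-54361106, plus strand): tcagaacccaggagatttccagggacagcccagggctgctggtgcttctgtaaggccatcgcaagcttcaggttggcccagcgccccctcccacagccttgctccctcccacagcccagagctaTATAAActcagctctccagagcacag
Kif11 held both elements within 45 bases of the start, Aurka held CCAAT at 51 and 19 bases before it, and Nqo1 and this Postn start held TATAAA at 29 and 26 bases. A match of letters is a description and no evidence of binding in these cells.

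The mitotic kinases and motors were followed on single arrays. Aurka, the kinase that matures centrosomes and builds the spindle, gave 9.13, 9.20 and 9.22 in control cells and 9.86, 9.95 and 10.02 in KK-TAF3 sh-PIP4K2B cells. The net difference was 0.76, and the control arrays were far below the others. Kif2c, a kinesin that depolymerises microtubules at centromeres, gave 8.93, 8.86 and 8.85 against 9.64, 9.71 and 9.58, a difference of 0.77 (SE 0.08, limma adjusted p = 1.46e-05). Kif23, a motor of the central spindle, gave 9.21, 9.05 and 9.07 against 9.89, 9.90 and 9.82 (0.76, SE 0.07, limma adjusted p = 1.12e-05). Kif20a, the kinesin needed for cytokinesis, had the smallest p of the list, with 9.83, 9.74 and 9.75 against 10.60, 10.55 and 10.55 (0.79, SE 0.06, limma adjusted p = 1.18e-06). In these 4 genes the gap between the groups was several times the spread within either. Pbk, a mitotic kinase, had the largest difference of the list at 0.85 (SE 0.11), with 8.0, 8.09 and 8.28 against 8.89, 9.02 and 9.0.

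The other members covered each stage of mitosis. The spindle checkpoint kinases and their partners Bub1b (0.75), Bub1 (0.68), Ttk (0.67) and Mad2l1 (0.60) were higher, as were the kinetochore genes Spc25 (0.68), Nuf2 (0.64) and Cenpa (0.67), the last of which encodes the histone H3 variant of centromeres. Plk1 (0.67) and Aurkb (0.70), which drive mitotic entry and chromosome alignment, and their substrates in cytokinesis Ect2 (0.64), Prc1 (0.63) and Anln (0.60) were higher too. Of the cyclins and their kinase, Ccnb2 (0.64), Ccna2 (0.59) and Cdk1 (0.52) were called, with the phosphatase gene Cdc25c (0.59) and the activator of the anaphase ubiquitin ligase, Cdc20 (0.60). Cdc25b, a phosphatase of the same family, was the single member with a negative value, at -0.08. Wee1 (0.34), the kinase that restrains Cdk1, and Bub3 (0.28), Fzr1 (0.12) and Ube2c (0.40) were not called. Cenpe had a difference of 0.55 but missed the adjusted p. Leaving out any 1 of the 6 arrays gave between 26 and 32 higher members.

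DNA replication genes lay on the same side with smaller values. Of 42 genes 8 were higher and none was lower, against 0.792% and 0.361% of all genes, and the median was 0.36, with every member above 0. Ccne2, the cyclin that starts S phase, had the largest difference (0.77, SE 0.17, limma adjusted p = 0.0125), with 7.92, 7.78 and 8.19 in control cells and 8.36, 8.57 and 9.29 in KK-TAF3 sh-PIP4K2B cells. Its lowest mutant array stood only a little above its highest control array, and the call was lost on the 9 or 6 etoposide arrays alone and without replicate 1 or 2 of the control cells (0.50 to 0.96 over all alternatives). Rrm2, the small subunit of ribonucleotide reductase, gave 10.79, 10.80 and 10.87 against 11.31, 11.38 and 11.52, a difference of 0.58. The replicative helicase subunits Mcm5 (0.55), Mcm3 (0.54) and Mcm7 (0.51) were called, and Mcm6 (0.39), Mcm2 (0.24) and Mcm4 (0.24) were not. Mcm10 (0.52), Pole (0.52) and Pole2 (0.49), which encode a replication initiation factor and subunits of the leading-strand polymerase, completed the called members. None of 22 G1 cyclins and CDK inhibitors was called. The largest values there were those of Rbl1 (0.42), a pocket protein that represses E2F, and E2f7 (0.40), a repressor of the E2F family.

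Genes of the response to broken DNA moved less. Of 40 genes for break repair and topoisomerases 5 were higher and none was lower, with a median of 0.13. Of these 5, Top2a is also counted among the called genes of the G2 and M phase list. Of all genes 0.792% were higher and 0.361% lower. Chek1, the checkpoint kinase that restrains mitotic entry, gave 8.29, 8.40 and 8.49 in control cells and 8.94, 9.03 and 9.20 in KK-TAF3 sh-PIP4K2B cells, a difference of 0.66 (SE 0.11, limma adjusted p = 0.000956). Top2a, the proliferation-linked topoisomerase II and a target of etoposide, gave 10.57, 10.44 and 10.33 against 11.06, 11.07 and 11.15. The groups did not overlap for either gene, as for all 230 called genes. The Top2a difference of 0.64 fell to 0.29 and was no longer called with the mean over its clusters in place of the brightest one. The recombination genes Exo1 (0.55), Rad54l (0.55) and Bard1 (0.51) were higher as well. Of 37 p53 targets 2 were called, both higher, and the median was 0.14. Pmaip1, which encodes the pro-apoptotic protein NOXA, gave 7.55, 7.73 and 7.69 against 8.09, 8.33 and 8.22 (0.56, SE 0.09, limma adjusted p = 0.00149). Ckap2, a spindle protein, was higher by 0.51, and this call was lost with array quality weights or without replicate 3 of the KK-TAF3 sh-PIP4K2B cells. The p21 gene Cdkn1a was not analysed here because its only cluster carries several symbols.

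**Figure D2:**
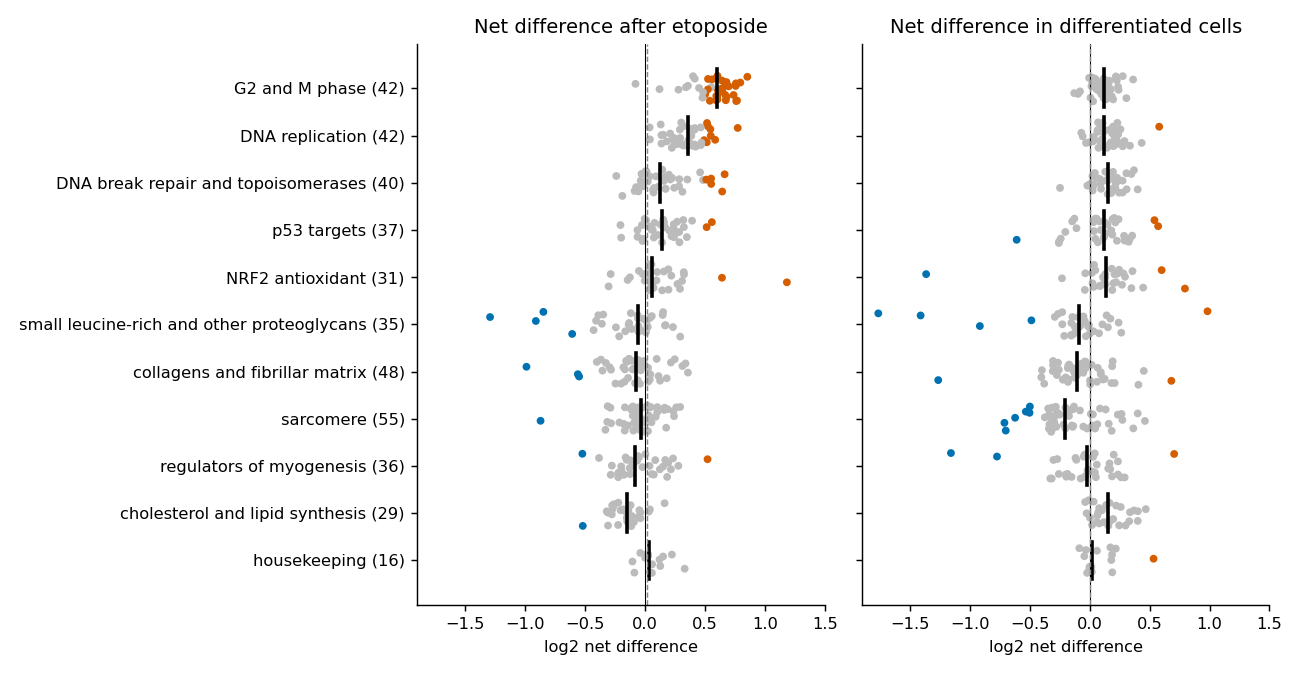
Net difference of each member of 11 gene lists (points; number of members in brackets) after etoposide (left) and in differentiated cells (right), in log2 units. Orange points were called higher, blue points lower and grey points were not called; black bars mark list medians and the dashed line the median of all genes. The G2 and M phase list has a median of 0.60 on the left and 0.12 on the right, where none of its 42 members was called.

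Outside the cell cycle the largest rises were in single genes of varied function. Serpinb2, an inhibitor of plasminogen activators that stress and inflammation induce in many cells, gave 7.60, 7.92 and 8.12 in control cells and 8.85, 9.19 and 9.47 in KK-TAF3 sh-PIP4K2B cells. The difference was 1.29, or 2.45-fold (SE 0.13, limma adjusted p = 1.57e-05). Nqo1, a quinone reductase and a classical target of the antioxidant factor NRF2, gave 9.96, 10.10 and 10.44 against 11.13, 11.28 and 11.63, or 2.27-fold. Both genes had wide spreads within their groups, and the groups still stood apart. Hmox1, the haem oxygenase that is also induced through NRF2, gave 10.12, 10.14 and 10.11 against 10.85, 10.75 and 10.68 (0.64, SE 0.06, limma adjusted p = 1.12e-05). Nqo1 and Hmox1 were the 2 called of 31 NRF2 antioxidant genes, where 0.792% of all genes were higher. The median of the list was 0.06. The RIKEN clone 2610524H06Rik, outside the rule for named genes and chosen after its value was seen, had the largest rise of all at 1.61.

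Further rises concerned membrane, neuronal and metabolic genes. Cd200, a surface glycoprotein that restrains myeloid cells, gave 7.72, 7.65 and 7.67 against 8.54, 8.71 and 8.80 (1.0, SE 0.09, limma adjusted p = 3.86e-06). Nefl, the light chain of neurofilaments, gave 7.98, 7.94 and 8.08 against 8.87, 9.13 and 9.03 (1.01, SE 0.10). Car8, a carbonic anhydrase homologue without enzyme activity, gave 7.60, 7.65 and 7.88 against 8.44, 8.89 and 9.09 (1.09, SE 0.12). Every mutant array of these genes was above every control array by a margin wider than the control spread. Mgst2, a microsomal glutathione transferase, and Sh2d1b1, an adaptor of lymphocyte signalling, both rose by 1.11. Cd24a, a glycosylphosphatidylinositol-anchored surface protein, differed by 0.92 but with mutant arrays spread from 6.11 to 6.98. Esco2, which acetylates cohesin in S phase, and Cep55, which directs abscission of daughter cells, rose by 0.87 and 0.80 and belong by function to the division genes above. Alcam (0.58), an adhesion molecule, was called with Cd200 among 34 integrin and adhesion genes. Ncam2 (-0.51), a neural adhesion molecule, was lower, a call lost in 5 of 18 alternatives. Of all genes 0.792% were higher and 0.361% lower.

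Growth factor ligands were among the higher genes. Pdgfd gave 7.36, 7.22 and 7.46 in control cells and 7.99, 8.37 and 8.35 in KK-TAF3 sh-PIP4K2B cells, a rise of 0.89 (SE 0.10, limma adjusted p = 4.11e-05). Hgf, the ligand of Met and an activator of satellite cells, gave 8.44, 8.38 and 8.65 against 9.15, 9.27 and 9.42, a rise of 0.79. Pdgfb, a ligand of the PDGF receptors like Pdgfd, gave 9.48, 9.63 and 9.40 against 10.17, 10.32 and 9.87, a rise of 0.62. None of these ligands overlapped between the groups, as for all 230 called genes. The ligands were the 3 higher members of 38 PDGF, HGF, FGF, VEGF and EGF family genes. Of all genes 0.792% were higher and 0.361% lower. Gfra2, a receptor for GDNF family ligands, was the lower one (-0.49), and its call was lost in 7 of 19 alternatives, which included the fits on the etoposide arrays alone. None of 47 BMP, Wnt and TGF-beta genes was called, with Tgfb2 at -0.47 and Tgfb3 at -0.42 the largest values.

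Of the 15 largest named falls 4 were extracellular matrix genes, Aspn, Postn, Prelp and Lum. Of 35 small leucine-rich and other proteoglycans 4 were lower and none was higher, where 0.361% of all genes were lower. Aspn, which binds collagen and TGF-beta, gave 9.90, 9.80 and 10.04 in control cells and 8.16, 8.59 and 9.11 in KK-TAF3 sh-PIP4K2B cells, a difference of -1.29 (SE 0.17, limma adjusted p = 0.000115). Prelp, which anchors basement membranes to connective tissue, gave 8.80, 8.71 and 8.50 against 7.84, 7.79 and 7.65 (-0.91, SE 0.10, limma adjusted p = 3.44e-05). Lum, the collagen-binding proteoglycan lumican, gave 6.46, 6.27 and 6.31 against 5.51, 5.35 and 5.65 (-0.85, SE 0.09, limma adjusted p = 1.44e-05). The groups stood apart for all of them, although Aspn varied widely among the mutant arrays and Lum was dim on every array. Ecm2 was lower by -0.61, a call lost without replicate 1 of the KK-TAF3 sh-PIP4K2B cells. The list's median was -0.06, with a range of -1.29 to 0.29. Of its 35 members 10 had mutant arrays fully below those of the control cells and 2 fully above. Over all genes these shares were 6.01% and 8.22%. The list of fibroblast markers shares Lum and Dcn with the proteoglycans and Col14a1 with the collagens. Of its 13 genes 2 were lower, the shared genes Lum and Col14a1, where 0.361% of all genes were lower. The median was -0.10. The mean log2 signal was 8.45 to 8.48 on the control arrays and 8.23 to 8.35 on the mutant arrays. These means include the shared genes, so they do not show a separate fall of fibroblast markers. The defining markers Pdgfra (-0.10) and Thy1 (-0.04) were not called, and the part of such cells in the matrix falls was not tested.

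Of 48 collagen and fibrillar matrix genes 3 were lower and none was higher, with a median of -0.08. Of all genes 0.361% were lower and 0.792% higher. Postn, a matricellular protein of wounds and regenerating muscle, gave 11.74, 11.62 and 11.47 in control cells and 10.58, 10.66 and 10.62 in KK-TAF3 sh-PIP4K2B cells. The groups were far apart, and the difference was -0.99, or 1.99-fold (SE 0.08, limma adjusted p = 1.52e-06). Col14a1, a fibril-associated collagen, was lower by -0.56 and Fbln5, an organiser of elastic fibres, by -0.55. Of 30 matrix proteases and inhibitors 2 were lower and 1 was higher, Serpinb2 (1.29), which had the largest change of the list. The aggrecanase Adamts5 gave 11.23, 11.21 and 10.83 against 10.54, 10.61 and 10.14 (-0.66), and Adamts1 10.41, 10.26 and 10.13 against 9.86, 9.83 and 9.45 (-0.56). The margin between the groups was narrow for both proteases. Their calls were lost when the etoposide arrays were fitted alone. Ccn2, a YAP target and matrix regulator, fell by 0.67 and Igfbp4, which sequesters insulin-like growth factors, by 0.60.

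Further falls lay in genes of metabolism, signalling and muscle structure. Lipi, a membrane-associated phospholipase, gave 6.37, 6.36 and 6.54 against 5.36, 5.29 and 5.41 (-1.07, SE 0.09, limma adjusted p = 1.6e-06). Like Lum, Lipi was dim on every array. C1qtnf3, a secreted adipokine-like protein, gave 9.34, 9.37 and 9.67 against 8.39, 8.64 and 8.46 (-0.96, SE 0.09, limma adjusted p = 1.12e-05). Car9, the hypoxia-induced carbonic anhydrase, gave 8.39, 8.24 and 8.05 against 7.32, 7.45 and 7.10 (-0.93, SE 0.12, limma adjusted p = 0.000122). The groups did not overlap for any of these, as for all 230 called genes. Mgarp (-0.96), a mitochondrial protein, Clec2d (-0.91), a lectin-like ligand of natural killer receptors, Dync1i1 (-0.88), a dynein intermediate chain, Pde2a (-0.82), a phosphodiesterase, Sgcd (-0.82), a sarcoglycan of the dystrophin complex, and Irak3 (-0.81), an inhibitor of Toll-like receptor signalling, were the other large falls. Car9 was the only called member of 31 hypoxia-inducible genes, where 1.15% of all genes were called.

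The lists of sarcomere genes, excitation-contraction coupling and regulators of myogenesis held 1 or 2 calls each, beside 1.15% of all genes called. Of 55 sarcomere genes only Myom2, the M-band protein myomesin 2, was called, with 8.65, 8.72 and 8.61 in control cells and 8.09, 7.67 and 7.61 in KK-TAF3 sh-PIP4K2B cells (-0.87, SE 0.11, limma adjusted p = 0.00012). Trdn, which couples the calcium release channel to calsequestrin, gave 10.08, 9.94 and 9.86 against 9.17, 9.27 and 9.19 (-0.75) and was the only one called of 30 genes for excitation-contraction coupling and the neuromuscular synapse. Both genes were lower on every mutant array. Of 36 regulators of myogenesis Id1, an inhibitor of MyoD family factors, was higher by 0.52 and Bhlhe40, a basic helix-loop-helix repressor, lower by -0.52. The Id1 and Bhlhe40 calls were lost with the array median as a covariate. Myod1 and Myog, the factors of commitment and differentiation, differed by 0.17 (interval 0.01 to 0.33) and -0.15 (interval -0.35 to 0.04). Acta1 (-0.29), Myl1 (-0.32), Ckm (0.03) and Myh3 (-0.04) were not called. Cd34, a marker of quiescent satellite cells, gave 10.74, 10.74 and 10.81 against 10.05, 10.23 and 10.15 (-0.62, SE 0.07) and was the only call among 33 quiescence and Notch genes.

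The remaining lists held few or no calls, beside 1.15% of all genes called. Sprr2f (0.82) and Sprr2e (0.57) were higher among 32 small proline-rich, keratin and desmosome genes, which encode proteins of the epidermal envelope. The Sprr2 genes are near-identical copies, so probes may be shared between them and each value is uncertain, and the Sprr2e call was lost in 3 of 18 alternatives. Sema3c (-0.53) and Slit2 (-0.54), secreted guidance cues, were the lower members of 43 genes for axon guidance, and the Slit2 call was lost in 9 of 19 alternatives and the Sema3c call without replicate 1 of the KK-TAF3 sh-PIP4K2B cells (-0.47). Insig1 (-0.52), which retains the sterol sensor in the endoplasmic reticulum, was the only call of 29 cholesterol and lipid synthesis genes, whose median was -0.15. Edem1 (-0.49), which takes part in the disposal of misfolded proteins, was the only call of 37 genes of the unfolded protein and amino acid stress response. The Insig1 and Edem1 calls were each lost in 4 of 19 alternatives. Among lists without any call, the largest differences were those of Fosl1 (0.38) in 27 immediate early genes, Ptgs2 (0.43) in 31 inflammatory genes, Oasl2 (-0.39) in 33 interferon response genes, Taf9b (0.40) in 37 TFIID and general transcription factor genes, Uhrf1 (0.36) in 51 PHD finger genes and Sdhd (0.22) in 43 oxidative phosphorylation genes. The 16 housekeeping genes had a median of 0.03, and among 22 imprinted growth genes the largest difference was -0.41 in Dcn. Lists of adipocyte, bone and cartilage, macrophage and blood, and endothelial genes had no call.

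**Figure D3:**
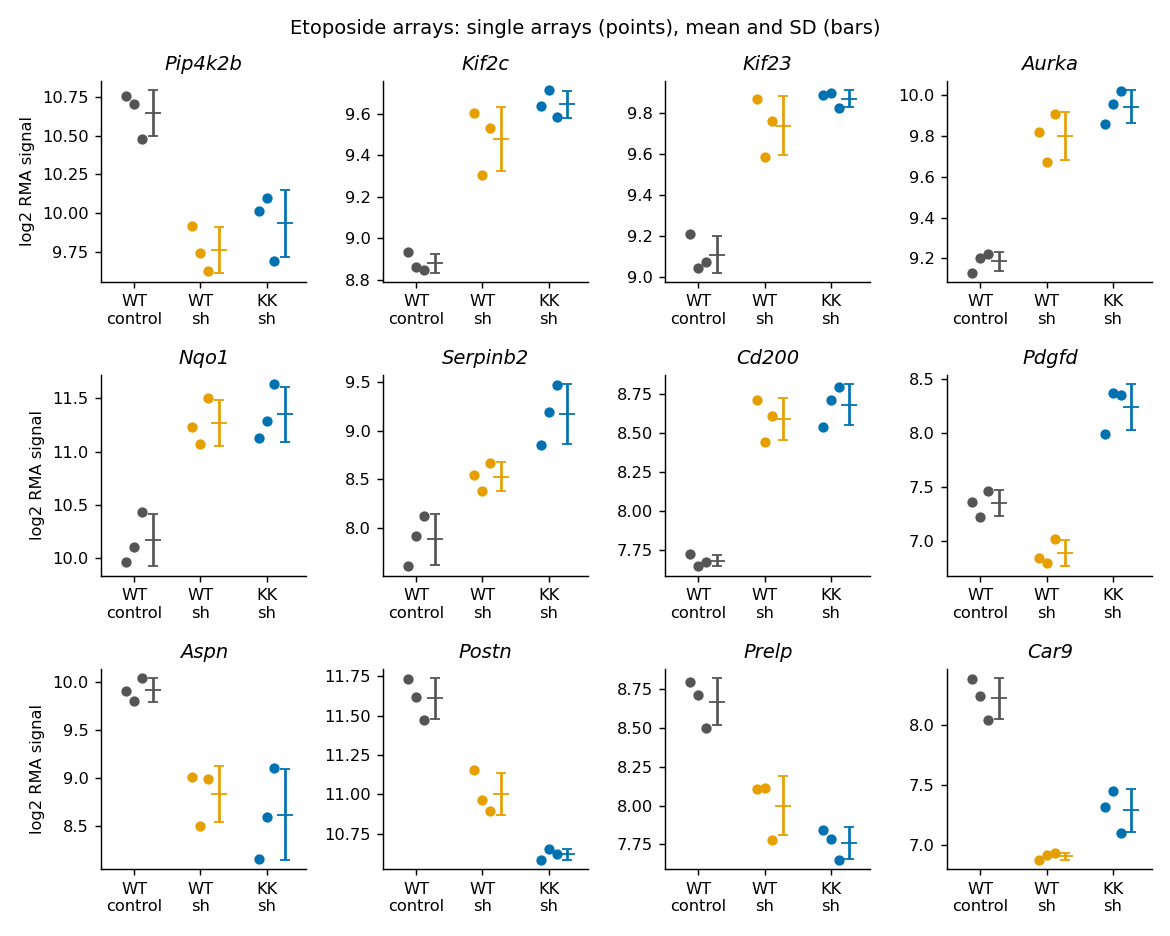
Log2 RMA signal of 12 genes on the 9 etoposide arrays in WT-TAF3 control, WT-TAF3 sh-PIP4K2B and KK-TAF3 sh-PIP4K2B cells. Points are single arrays and bars the mean and SD of 3 arrays; each panel has its own axis, which does not start at 0. In all 12 genes the KK-TAF3 sh-PIP4K2B arrays lie entirely on one side of the WT-TAF3 control arrays, and in Pdgfd the WT-TAF3 sh-PIP4K2B arrays lie below both.

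The net difference was next set beside its steps, PIP4K2B depletion in WT-TAF3 cells and the change from WT-TAF3 to KK-TAF3 in depleted cells. Both steps use the WT-TAF3 sh-PIP4K2B arrays, each shares its other group with the net difference, and their values sum to it, so they are given side by side without a test of one against the other. For the G2 and M phase list the depletion step had a median of 0.44 with 15 of 42 members higher (0.321% of all genes were higher), and the KK-TAF3 step a median of 0.16 with 1 member higher, Pbk (0.341% of all genes). The corresponding medians for DNA replication were 0.23 and 0.12, with 3 and 0 of 42 members higher. Aurka changed by 0.61 and 0.14 over the 2 steps, Plk1 by 0.67 and -0.00 and Kif20a by 0.72 and 0.07. Nqo1 (1.10 and 0.08), Cd200 (0.91 and 0.09) and Hmox1 (0.61 and 0.03) also moved mostly with depletion, as did Aspn (-1.08 and -0.22), Lum (-0.95 and 0.10) and Cd34 (-0.67 and 0.05) among the falls.

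Other genes moved on both steps or mainly on the second. Serpinb2 changed by 0.65 and 0.64, Lipi by -0.64 and -0.43, Postn by -0.61 and -0.39, C1qtnf3 by -0.44 and -0.52 and Mgarp by -0.42 and -0.54. Irak3 changed by 0.10 on depletion and by -0.90 with KK-TAF3, where 0.0652% of all genes were lower, Sprr2f by 0.01 and 0.82, Pmaip1 by 0.04 and 0.51 and Igfbp4 by -0.15 and -0.45. Pdgfd had a depletion step of -0.47, within the 1.4-fold limit, and rose by 1.35 with KK-TAF3.

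Some genes that both steps moved strongly ended near the control level. Sprr2b gave 5.82, 5.50 and 5.90 in control cells, 8.11, 7.88 and 7.98 in WT-TAF3 sh-PIP4K2B cells and 5.79, 5.77 and 5.35 in KK-TAF3 sh-PIP4K2B cells. Its net difference was -0.10 (interval -0.38 to 0.17), and the control and mutant arrays overlapped. Il33, an alarmin cytokine, gave 8.39, 8.34 and 8.46, then 7.16, 6.93 and 6.73, then 8.0, 8.19 and 8.24, with a net difference of -0.26 (limma adjusted p = 0.238). Dcn, the proteoglycan decorin, gave 12.12 on each control array, then 10.72, 10.45 and 10.60, then 11.62, 11.73 and 11.78. Its mutant arrays remained below the control arrays by 0.41 (SE 0.07, limma adjusted p = 0.00163), or 1.33-fold, inside the fold limit. Gfra2 (-0.70 and 0.20), Sema3c (-0.84 and 0.31) and Car9 (-1.32 and 0.38) had second steps of the opposite sign that left them called in the net difference.

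**Figure D4:**
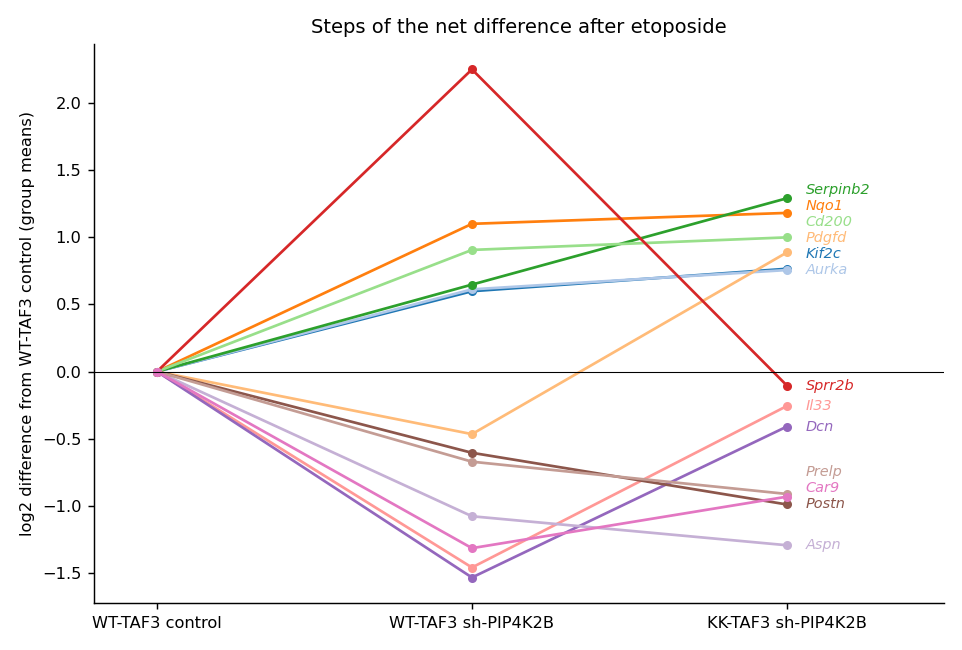
Group means of 13 genes as the log2 difference from WT-TAF3 control cells (y axis) in WT-TAF3 control, WT-TAF3 sh-PIP4K2B and KK-TAF3 sh-PIP4K2B cells after etoposide, 3 arrays each, joined by a line per gene. Sprr2b, Il33 and Dcn leave the control level by 2.25, -1.46 and -1.53 and end at -0.10, -0.26 and -0.41, whereas Aspn, Postn, Prelp, Serpinb2 and Nqo1 end farther from it than they stood after depletion.

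Whether the net difference depended on etoposide itself cannot be asked, because the series holds no undifferentiated cells without the drug. The net difference was instead set against the same difference in cells differentiated for 2 days, on 6 other arrays. There 251 genes (1.26%) were called, 164 higher and 87 lower. Of the 158 genes higher after etoposide 29 (18.4%) were also higher in differentiated cells, which is 17.7% of the 164, and of the 72 lower genes 19 (26.4%) were also lower, which is 21.8% of the 87. None was called in opposite directions. Over all genes the net differences of the treatments correlated at r = 0.27, a description across genes, which are not independent replicates. The difference between the treatments itself passed the limma test with 1.4-fold for 143 genes (0.717%), with 78 higher after etoposide relative to differentiation and 65 lower. With each array centred on its median the split was 54 and 92.

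The G2 and M phase list also held the most genes whose net difference depended on the treatment. In differentiated cells their median net difference was 0.12, with a range of -0.13 to 0.36, and none of 42 was called. The test of the difference between treatments called 14 of the 42, all higher after etoposide, against 0.391% of all genes. Kif20a had a net difference of 0.79 after etoposide and 0.10 in differentiated cells, a difference of 0.70 (limma adjusted p = 0.000703), and Kif23 of 0.76 and 0.14, a difference of 0.62 (limma adjusted p = 0.00679). The mean signal of the 42 genes in WT-TAF3 control cells was 9.28 to 9.35 after etoposide and 9.72 to 9.82 in differentiated cells, and in KK-TAF3 sh-PIP4K2B cells 9.82 to 9.94 and 9.86 to 9.91. Medium, time and drug all differ between the treatments and cannot be told apart. Of the DNA replication genes 1 of 42, Mcm5, was called (0.55 and 0.03).

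Matrix and muscle genes differed in their pattern. Postn fell by 0.99 after etoposide and by 0.31 in differentiated cells, and the difference of -0.68 was called (limma adjusted p = 0.00417), whereas Prelp and Lum were lower in both treatments and farther from control in differentiated cells, by -1.76 and -1.41. Aspn (-1.29 and -0.92), Lipi (-1.07 and -1.19), Serpinb2 (1.29 and 0.56), Nqo1 (1.18 and 0.80), Hmox1 (0.64 and 0.60), Pdgfd (0.89 and 1.16) and Hgf (0.79 and 0.53) moved the same way in both, and the test of their difference between treatments was not passed. Cd200 rose in both, and more in differentiated cells (1.0 and 1.81). Car9 was lower after etoposide (-0.93) and had a positive value in differentiated cells (0.48, limma adjusted p = 0.0242, short of the 1.4-fold limit and not called), a difference of -1.41. Myog (-0.15 and -0.77) and Mymk (-0.18 and -1.16), the latter needed for myoblast fusion, were called lower in differentiated cells and not after etoposide, and the difference was called for both. The Myog call between treatments was lost in 11 of 22 alternatives (0.49 to 0.69), and that of Mymk in none. Of 29 cholesterol synthesis genes 8 were called as lower after etoposide relative to differentiation (0.326% of all genes), among them Cyp51 (-0.32 and 0.26), Msmo1 (-0.31 and 0.37) and Lss (-0.28 and 0.34), enzymes of the pathway that singly were not called in either treatment. The call of another member, Insig1, was lost in 13 of 23 alternatives, and the number of all genes called lower between treatments fell from 65 to 20 with the array median as a covariate and to as few as 27 without replicate 1 of the WT-TAF3 control differentiated cells.

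**Figure D5:**
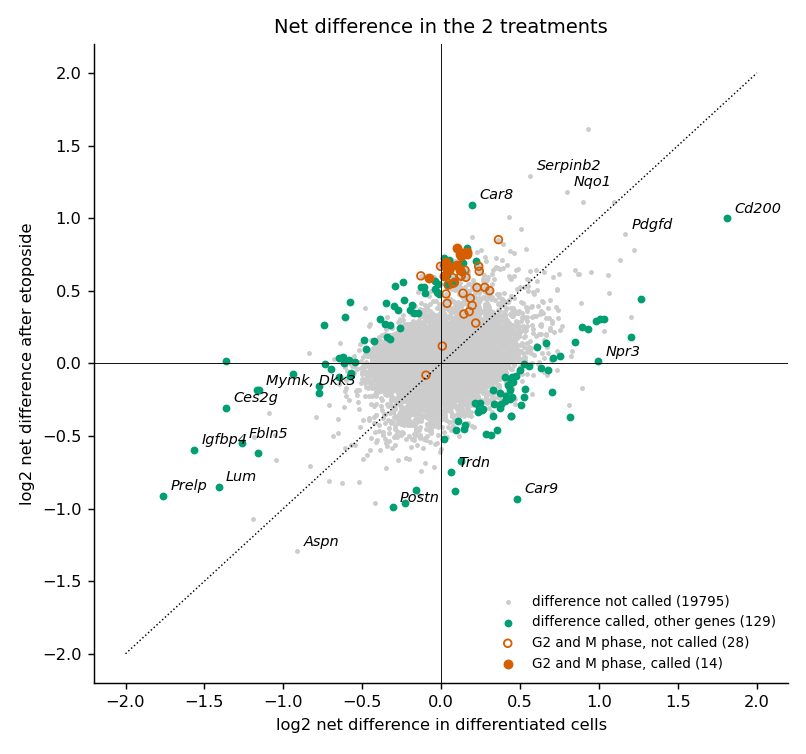
Net difference of each gene after etoposide (y axis) against that in differentiated cells (x axis), both in log2 units of KK-TAF3 sh-PIP4K2B minus WT-TAF3 control, with equal values on the dotted line. Green and filled orange points mark the 143 genes whose difference between treatments was called; the G2 and M phase genes (orange) lie between -0.13 and 0.36 on the x axis, and the 31 called after etoposide between 0.50 and 0.85 on the y axis.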

How the data were processed

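Expression was profiled on Affymetrix mouse gene arrays, with 3 arrays in each of 6 groups. The deposited values were log2 signals made by the authors with RMA (Affymetrix Expression Console, per the submitters' processing notes, which give no version), that is, background correction, quantile normalization and a summary of the probes of each of 35556 transcript clusters. Of these, 21789 carried 1 gene symbol, 1621 several and 12146 none in the platform annotation used. For each of 19938 genes the brightest single-symbol cluster was kept, and 999 genes had more than 1 cluster. The number of arrays limits the precision.

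Group means over all 18 arrays were fitted with limma 3.58.1 in R 4.3.3, with empirical Bayes moderation (12 residual and 6.05 prior degrees of freedom) and Benjamini-Hochberg adjustment over all genes. A call required an adjusted p under 0.05 and more than 1.4-fold. Intervals are 95% intervals from the same fit. The net difference in differentiated cells, its difference from that after etoposide, and the steps were contrasts of this fit. The script was tested on simulated data. The 14 alternatives covered the arrays fitted, thresholds, variance model, covariate, filter, clusters, normalization, replicate block and each array left out.

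The genes named were Pip4k2b, Pip4k2a, Pip4k2c and Taf3, the 15 largest rises and 15 largest falls among called genes with separated arrays (predicted genes, RIKEN clones, small RNA and receptor families of smell excluded), up to 4 called members of each list or the 2 largest differences where none was called, the genes the study tested by PCR, and up to 8 genes per direction of the difference between treatments. Further list members are given to describe their list. The members and lists were chosen with earlier results of these data known. Tspan7 and Cdkn1a were not analysed here, for want of a cluster with exactly 1 symbol. The replicate numbers stand in the titles, which say nothing of shared cultures or days. Deviations from the group means of same-numbered KK-TAF3 sh-PIP4K2B and WT-TAF3 control etoposide arrays correlated at 0.169, 0.100 and 0.593 across genes. Mutant replicate 1 correlated with control replicate 2 at 0.466, and mutant replicate 2 with control replicate 1 at 0.253. The numbers thus give no clear pairing and were treated as pairs in 1 alternative only. Promoter windows came from RefSeq on GRCm38.p6, matched by gene, and were searched on both strands for the elements spelled out in the report.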

Additional observations from a re-analysis of the deposited data

Results flagged for a closer look

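The limma test of the difference between treatments, an interaction term, called 143 of 19938 genes whose net difference after etoposide was not the same as in cells differentiated for 2 days. The values below are the net difference after etoposide minus that in differentiated cells, on the log2 scale, for the 34 called genes among those named. Among genes of division and replication they were 0.70 for Kif20a, 0.63 for Cep55, 0.62 for Kif23, 0.60 for Kif2c and 0.51 for Mcm5. Among matrix genes they were 0.85 for Prelp, 0.71 for Fbln5, 0.56 for Lum and -0.68 for Postn. Muscle and stem cell genes gave 0.97 for Mymk, 0.62 for Myog, 0.54 for Cd34, -0.72 for Myom2 and -0.81 for Trdn. Secreted and signalling genes gave 0.98 for Dkk3, 0.97 for Igfbp4, -0.98 for Npr3 and -1.19 for Sema3d. Carbonic anhydrases gave 0.90 for Car8, -0.82 for Car3 and -1.41 for Car9. Surface proteins and receptors gave 1.38 for Gpr141, 1.0 for Emb and -0.81 for Cd200. Enzymes and metabolic genes gave 1.06 for Ces2g, 0.51 for Slc2a4, -0.54 for Insig1, -0.73 for Mgarp and -1.02 for Ak4. The others were 1.01 for Etv1, 0.93 for Trp53i11, -0.83 for Mctp1, -0.89 for Lix1 and -0.97 for Dync1i1. The calls of Slc2a4 (17 of 22), Cep55 and Myom2 (14 of 23 each), Insig1 (13 of 23), Emb (13 of 22), Lum and Myog (11 of 22 each) were lost in many of the alternatives run, mostly on leaving out a single array, and the replicate block ended those of Cep55 and Slc2a4. Drug, medium and time differ between the treatments and cannot be told apart.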

How the results depend on the processing

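No called value of a named gene changed sign under any alternative run, whereas uncalled values near 0 did so for Pip4k2a, Pip4k2c, Sprr2b, Ckm, Myh3, Gpr141 and Npr3, and 48 of the 63 named genes called after etoposide were called in every one. Without a fold limit 368 genes were higher and 249 lower. Leaving out 1 array at a time gave 142 to 197 higher genes, 55 to 115 lower genes and 26 to 32 higher G2 and M phase genes. The 9 etoposide arrays alone gave 125 higher and 48 lower genes, and all 173 were among the 230. The 15 calls lost in at least 1 alternative spanned, over the alternatives, -0.60 to -0.42 for Ncam2, 0.41 to 0.56 for Ckap2, 0.29 to 0.74 for Top2a, 0.50 to 0.96 for Ccne2, -0.59 to -0.48 for Bhlhe40, 0.42 to 0.63 for Id1, -0.71 to -0.47 for Ecm2, -0.79 to -0.52 for Adamts5, -0.63 to -0.43 for Adamts1, -0.59 to -0.37 for Gfra2, -0.68 to -0.42 for Slit2, -0.60 to -0.47 for Sema3c, 0.48 to 0.66 for Sprr2e, -0.58 to -0.39 for Insig1 and -0.55 to -0.43 for Edem1. All of these but Top2a, Bhlhe40 and Adamts5 were lost on leaving out a single array. Between treatments an unadjusted p gave 213 higher and 161 lower genes, array quality weights 212 and 151, and the array median as a covariate 20 lower, and the cause was not tested. Leaving out 1 array gave 46 to 79 higher and 27 to 75 lower, with the lowest counts without replicate 1 of the WT-TAF3 control differentiated cells, and 13 of the 34 named calls were lost in at least 1 alternative, those of Car8, Cep55, Mgarp, Myom2, Lum, Trdn, Myog, Mcm5, Insig1, Slc2a4, Emb, Ak4 and Mctp1. The replicate block gave 161 higher and 75 lower genes, with 228 shared with the 230, and between treatments 81 were higher and 65 lower. The block ended the calls between treatments of Cep55 (0.63) and Slc2a4 (0.51), both with a limma adjusted p of 0.0501, and changed no other call of a named gene. Small changes of dim genes lie below what 3 arrays a group resolve.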

Other observations

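Some division genes outside the lists were gathered after their values had been seen, so their counts describe these genes and carry no test. Of all genes 0.792% were higher and 0.361% lower after etoposide. Of 8 condensin genes, which compact chromosomes, Ncapg (0.78), Smc2 (0.63), Ncapg2 (0.58) and Ncaph (0.57) were higher after etoposide, while Smc4 (0.22) and Ncaph2 (0.02) were not called. Of 12 genes of sister chromatid cohesion 3 were higher, namely Esco2 (0.87), Cdca5 (0.74) and Sgo2a (0.66), all regulators of cohesin. The core cohesin subunits Smc1a (0.07), Smc3 (0.10) and Rad21 (0.05) were not called. Of 26 further kinetochore and centromere genes 9 were higher, led by Ska3 and Spag5 (both 0.71) and Oip5 (0.68), and the median was 0.41. Among 12 transcription regulators of the cell cycle only Mybl1 (0.60) was called, with Mybl2 at 0.48 and Foxm1 at 0.39. In differentiated cells none of the genes of these 4 sets was called.

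Of 16 carbonic anhydrase genes 1 was higher, Car8 (1.09), and 1 lower, Car9 (-0.93), where 1.15% of all genes were called. Car3, a muscle isoform, differed by -0.46 and was not called.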
